A study of Homo sapiens with 6 samples.

Results

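The genes described here are 10 human imprinted genes, PEG10, SGCE, PEG3, MEST, MEG3, H19, IGF2, GRB10, DLK1 and NDN, taken by name from a table of 62700 genes. They were chosen by name with their FPKM in these 6 libraries, and so the comparison below, already known. Their levels and differences are therefore given as a description, without a test. RNA was measured by RNA-seq in A549 cells, an epithelial cell line established from a human lung adenocarcinoma. The sgH2AC19 group is 3 libraries of knockout derivatives made with a guide against H2AC19, a histone H2A gene, and the sgControl group is 3 libraries of cells with a control guide whose genotype is given as WT. All were grown in RPMI-1640 with serum, and the labels name no further allele, agent or time. Whether the derivatives are a single clone or a pool is not stated, nor whether the libraries of a group come from separate cultures, so p-values reflect library-to-library spread alone, and this may be technical.

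An imprinted gene is transcribed mainly or only from the allele inherited from one parent. The choice of allele is set in the germ line by DNA methylation of imprinting control regions, which act on clusters of neighbouring genes, often with a noncoding RNA of the cluster made from the opposite allele to its protein-coding genes. Many imprinted genes govern fetal and placental growth, and loss of imprinting or altered dosage of several of them, among them IGF2, H19, MEG3 and PEG10, has been described in tumours. The FPKM used here (fragment counts scaled to gene length and library size) add the reads of both alleles, so the allele of origin was not seen.

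The PEG10 transcript is shown at the site that defines the gene. PEG10 descends from a retrotransposon and keeps its viral way of making a longer protein, a ribosomal frameshift at the heptamer GGGAAAC. In the GENCODE 29 transcript of PEG10 on GRCh38, 6618 bases long, the heptamer occurred 1 time, in exon 2 of 2, at chr7:94664510-94664516 on the plus strand. The first reading frame held 325 codons. Its codon 318 ended on the heptamer's first base, and 7 more codons, the first 2 of them inside the heptamer, led to its stop. The shifted frame, read from the heptamer's first base, had no stop for 390 codons. The heptamer's letters occurred in 36.9% of 1670 protein-coding transcripts whose length was within 500 bases of this one, so the match by itself is a description. Capitals mark the heptamer.
PEG10 frameshift site: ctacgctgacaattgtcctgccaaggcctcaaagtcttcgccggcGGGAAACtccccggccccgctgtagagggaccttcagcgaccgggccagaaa

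The promoter window of MEG3 is shown because MEG3 was the member with lower RNA in sgH2AC19 libraries. It covers 250 bases before to 50 after a RefSeq start on GRCh38.p14, chr14:100825858-100826157, plus strand. Capitals mark TGACGTCA, the cAMP response element, at −50 from the start, and TATAAA, the core promoter element that TBP binds, at −18.
MEG3 promoter: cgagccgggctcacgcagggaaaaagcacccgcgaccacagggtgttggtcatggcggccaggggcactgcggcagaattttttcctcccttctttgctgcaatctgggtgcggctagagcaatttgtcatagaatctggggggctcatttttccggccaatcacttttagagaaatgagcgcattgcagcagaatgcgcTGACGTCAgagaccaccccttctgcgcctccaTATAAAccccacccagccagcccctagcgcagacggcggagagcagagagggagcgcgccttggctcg
RefSeq windows were at hand for 5 members, 15 windows in all, for GRB10, MEST, H19, MEG3 and NDN. TGACGTCA, searched on both strands, lay in all 3 MEG3 windows and in no window of the other members, and in 1.85% of 35116 promoter windows. TATAAA lay in 3 of 3 MEG3 windows and 1 of 5 GRB10 windows, against 11.5% of all windows. TGCCGC, the core of the site bound by the imprint-keeping protein ZFP57 when methylated, lay in 9 of the 15 windows, against 16.7% of all. Those 9 were 3 of 3 for MEG3, 4 of 5 for MEST, 1 of 1 for NDN and 1 of 5 for GRB10. Windows of MEG3 overlap each other, as do windows of MEST, so the 9 are not independent and nothing is read from their share. CACGTG, the E-box bound by MYC and USF proteins, lay in 0 of 15 and in 7.26% of all. The motifs marked in the MEG3 window do not overlap each other. The 3 MEG3 windows overlap over most of their length and lie inside the longer gene that GENCODE annotates. CpG dinucleotides, the substrate of DNA methylation, stood at 0.728 of the number expected from base composition in the MEG3 window shown, 0.951 in the NDN window and 0.242 in the H19 window, beside a median of 0.579 over all windows. The GC content was 59.0%, 72.0% and 57.7% in these windows, beside a median of 58.7%.

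Across the series, 35681162 to 45738439 reads per library were recovered from the spacing of the FPKM values, a factor of 1.28. Mitochondrial genes held 30.7% to 32.5% of the FPKM in sgH2AC19 libraries and 29.6% to 31.1% in sgControl libraries. The groups lay apart on the first principal component (53.7% of the variance), and the second (18.2%) set sgH2AC19 replicate 3 apart from replicates 1 and 2. H2AC19 itself was listed at 0 FPKM in all 6 libraries, as was its near-identical copy H2AC18, so the targeted gene does not check the labels. Of the A549 and epithelial markers, 7 of 13 passed the filter, 4 rose and 2 fell. The summed level of the list was 978 to 1025 FPKM in sgH2AC19 libraries and 847 to 878 FPKM in sgControl libraries, mostly keratins. KRT8 and KRT18 rose. KRT19 fell, at 43.5 FPKM in sgH2AC19 libraries and 59.9 FPKM in sgControl libraries (limma adjusted p = 0.0023). KRT7 fell too, at 214 and 243 FPKM (limma adjusted p = 0.014), a call lost without sgControl replicate 2 or 3 (adjusted p = 0.061 and 0.056). The lung markers NKX2-1 and SFTPC were near 0. Fibroblast markers passed the filter in 3 of 9 cases and 2 rose, COL1A1 (which passed only through its sgH2AC19 level) and LUM (not called without sgH2AC19 replicate 1 or 2 or sgControl replicate 2 or 3, at adjusted p 0.057 to 0.070), with a summed level of 6.73 to 7.34 FPKM in sgH2AC19 libraries and 4.56 to 5.10 FPKM in sgControl libraries, while COL1A2 and DCN were near 0. Endothelial markers summed to at most 0.276 FPKM in sgH2AC19 libraries and 0.219 FPKM in sgControl libraries, and leukocyte markers to 2.99 to 4.24 FPKM in sgH2AC19 libraries and 2.64 to 3.04 FPKM in sgControl libraries. CD14 held most of the leukocyte sum, with means of 2.60 FPKM in sgH2AC19 libraries and 1.94 FPKM in sgControl libraries. It passed the filter and was not called (limma adjusted p = 0.13). ITGAM came next, at 0.812 and 0.893 FPKM, while CD3E and MS4A1 were at 0 throughout. The part of these differences in any result below was not tested.

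Differences are given as log2(FPKM + 1) of sgH2AC19 minus sgControl, with the standard error of limma's fit over the 12871 genes that had at least 1 FPKM in at least 3 libraries. The offset of 1 understates the change of low genes. In bulk RNA, fewer cells expressing a gene and less RNA per cell cannot be told apart. Of all genes tested, 2967 (23.1%) had an adjusted p under 0.05, 1545 (12.0%) higher and 1422 (11.0%) lower in sgH2AC19 libraries, and in 43.2% the libraries of the groups did not overlap. The count of genes called was 1965 without sgH2AC19 replicate 2, and 1663, 1513 and 1632 without sgControl replicates 1, 2 and 3. Of the 10 imprinted genes, 7 passed the filter. In 2 of the 7 the groups did not overlap, PEG10 being higher and MEG3 lower in sgH2AC19 libraries. Nothing is read from that count, since this contrast chose the genes. Among the 7, differences were within 0.2 of 0 in 5, and the median was 0.02, beside −0.01 over all genes tested.

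The level order of the 10 genes was the same in both groups. PEG10 came first, followed by GRB10, MEST, MEG3, SGCE, IGF2 and H19, with no overlap between the libraries of neighbours in that order. NDN and DLK1 followed close to 0, and their sgH2AC19 libraries overlapped, as did their sgControl libraries. PEG3 was listed at 0 in every library. FPKM divide by a gene length, and the lengths that gave whole reads were 23224 bases for MEG3 and 20876 bases for SGCE but 6689 bases for PEG10, so the place of a gene in this order depends on its annotation.

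**Figure D1:**
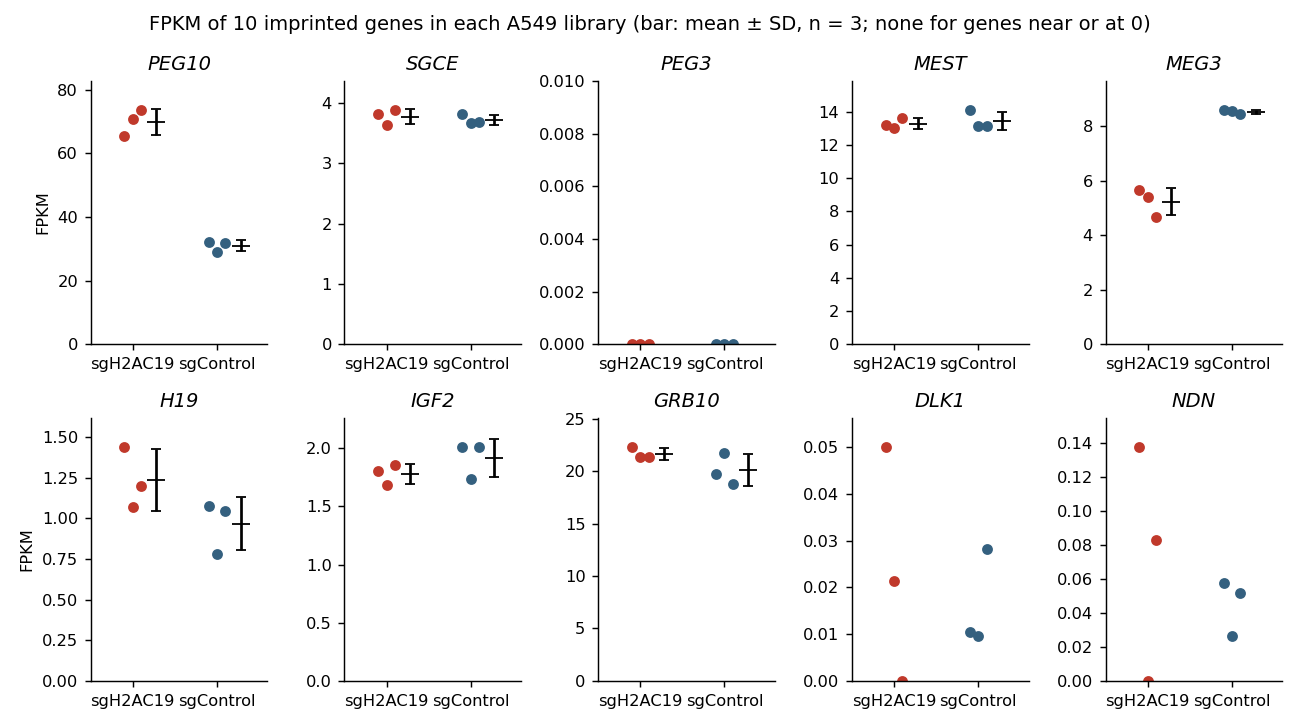
FPKM of the 10 imprinted genes in each library, one panel per gene, sgH2AC19 left and sgControl right, with dots for libraries and bars for mean ± SD (n = 3) where the gene passed the filter. PEG10 stands at 65.4 to 73.6 FPKM in sgH2AC19 libraries and 29.1 to 32.0 FPKM in sgControl libraries, MEG3 at 4.66 to 5.64 FPKM in sgH2AC19 libraries and 8.44 to 8.58 FPKM in sgControl libraries, and in the other panels the groups overlap.

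PEG10 and SGCE share a promoter region on chromosome 7 and are transcribed away from each other, both from the paternal allele. PEG10 (ENSG00000242265, chr7:94656325-94669695, plus strand, 3 merged exons) encodes a retrotransposon-derived Gag-like and Gag-Pol-like protein that is essential for the placenta in mouse. Its level was 65.4, 70.8 and 73.6 FPKM in sgH2AC19 libraries and 32.0, 29.1 and 32.0 FPKM in sgControl libraries. Every sgH2AC19 library lay above every sgControl library. The means were 69.9 ± 4.17 FPKM in sgH2AC19 libraries and 31.0 ± 1.64 FPKM in sgControl libraries (SD, n = 3 each), a ratio of 2.25, and the log2 difference was 1.15 (SE 0.0603). That difference ranked 11 from the top among the 12871 genes tested. The values rested on 16888 to 19996 reads in sgH2AC19 libraries and 7704 to 8678 reads in sgControl libraries. In the ranking of all tested genes by level, PEG10 stood at the 96.5th percentile in the sgH2AC19 mean and the 90.7th in the sgControl mean. Leaving out any 1 library kept the log2 difference between 1.10 and 1.19.

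SGCE (ENSG00000127990, chr7:94524204-94656572, minus strand, 16 merged exons) encodes ε-sarcoglycan, a membrane protein of the dystrophin-associated complex whose loss causes myoclonus-dystonia. It had 3.82, 3.63 and 3.88 FPKM in sgH2AC19 libraries and 3.82, 3.66 and 3.68 FPKM in sgControl libraries, and the groups overlapped. Its means were 3.77 ± 0.131 FPKM in sgH2AC19 libraries and 3.72 ± 0.0843 FPKM in sgControl libraries (SD, n = 3 each), with a log2 difference of 0.02 (SE 0.0501). SGCE was well covered too, by 2701 to 3644 reads in sgH2AC19 libraries and 2889 to 3116 reads in sgControl libraries. The PEG10 to SGCE ratio within a library was 17.1, 19.5 and 18.97 in sgH2AC19 libraries and 8.38, 7.95 and 8.69 in sgControl libraries. The annotated genes overlap by 248 bases on opposite strands, and whether reads were counted by strand is not given in the sources used here. Within 500 kb of the pair, 2 other genes passed the filter. PPP1R9A, which encodes the actin-binding protein neurabin and is imprinted in some tissues, rose to 4.96 ± 0.198 FPKM in sgH2AC19 libraries, against 3.86 ± 0.170 FPKM in sgControl libraries (SD, n = 3 each). Its log2 difference was 0.29 (SE 0.0532, limma adjusted p = 0.0094). CASD1, a sialic acid O-acetyltransferase gene on the far side of SGCE, had 10.1 ± 0.447 FPKM in sgH2AC19 libraries and 10.6 ± 0.352 FPKM in sgControl libraries and was not called (log2 difference −0.07, limma adjusted p = 0.37).

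MEG3 and DLK1 belong to a cluster on chromosome 14 in which the maternal allele makes noncoding RNAs and the paternal allele DLK1. MEG3 (ENSG00000214548, chr14:100779410-100861031, plus strand, 7 merged exons) is a long noncoding RNA known as a growth suppressor. It had 5.64, 5.39 and 4.66 FPKM in sgH2AC19 libraries and 8.58, 8.56 and 8.44 FPKM in sgControl libraries. All sgH2AC19 libraries were below all sgControl libraries, and the sgControl values were the tighter group. The means were 5.23 ± 0.509 FPKM in sgH2AC19 libraries and 8.53 ± 0.0745 FPKM in sgControl libraries (SD, n = 3 each), a ratio of 0.614 and a log2 difference of −0.62 (SE 0.0662), which ranked 164 from the bottom. Reads numbered 4113 to 5992 in sgH2AC19 libraries and 7222 to 7952 in sgControl libraries. Without sgH2AC19 replicate 3, which was the lowest, the log2 difference was −0.55. Without other single libraries it reached −0.66 at most.

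DLK1 (ENSG00000185559, chr14:100725705-100738224, plus strand) encodes a membrane protein related to Notch ligands that marks precursor cells. It ended 41.185 kb before the annotated start of MEG3 and was barely detected. It had 0.050, 0.0214 and 0 FPKM in sgH2AC19 libraries and 0.0105, 0.00964 and 0.0282 FPKM in sgControl libraries. This is 12, 4 and 0 reads in sgH2AC19 libraries and 2, 2 and 6 reads in sgControl libraries, so no difference could be read at this depth. Of 138 annotated genes within 500 kb of DLK1 or MEG3, 87 were at 0 in every library and 7 were tested. None of the 7 was called by limma, none had an unadjusted p under 0.05, and voom on recovered reads called 0 as well. Among them SNORD113-3, a small nucleolar RNA made from the maternal transcript downstream of MEG3, had 3.95, 3.11 and 2.56 FPKM in sgH2AC19 libraries and 5.36, 3.87 and 3.77 FPKM in sgControl libraries. Those groups overlapped (log2 difference −0.34, SE 0.150, limma adjusted p = 0.14). The annotated SNORD113-3 gene spans only chr14:100929919-100929990, so its FPKM rest on few reads. MEG9, a further noncoding RNA of the cluster, stayed under the filter, with 0.182, 0.241 and 0.243 FPKM in sgH2AC19 libraries and 0.340, 0.356 and 0.331 FPKM in sgControl libraries. MEG8 was fainter still, at 0.0707, 0.0672 and 0.0613 FPKM in sgH2AC19 libraries and 0.10, 0.0764 and 0.0986 FPKM in sgControl libraries. For both, the sgH2AC19 libraries lay below the sgControl libraries, yet neither was called when all detected genes were fitted (limma adjusted p = 0.26 for MEG9 and 0.55 for MEG8). Of 32 noncoding genes detected with a start after that of MEG3, 26 had a lower mean in sgH2AC19 libraries, most of them on 1 or a few reads. Only 1 of the 32 was tested, SNORD113-3, and 5 reached 1 FPKM in any library. Many lie inside other transcripts of the cluster, so they are not separate observations. The share among equally faint genes elsewhere was not computed, and nothing is read from the count.

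IGF2 and H19 are neighbours on chromosome 11 that use shared enhancers on opposite alleles under a CTCF-bound control region. IGF2 (ENSG00000167244, chr11:2129112-2149603, minus strand), the paternally expressed fetal growth factor, had 1.81, 1.69 and 1.85 FPKM in sgH2AC19 libraries and 2.01, 1.73 and 2.01 FPKM in sgControl libraries. Its groups overlapped, with means of 1.78 ± 0.0858 FPKM in sgH2AC19 libraries and 1.92 ± 0.160 FPKM in sgControl libraries (SD, n = 3 each) and a log2 difference of −0.07 (SE 0.0695). H19 (ENSG00000130600, chr11:1995176-2001470, minus strand), a maternally expressed noncoding RNA and host of miR-675, had 1.44, 1.07 and 1.20 FPKM in sgH2AC19 libraries and 1.08, 0.782 and 1.05 FPKM in sgControl libraries. These groups overlapped too, sgH2AC19 replicate 2 lying just below sgControl replicate 1. The H19 means were 1.24 ± 0.188 FPKM in sgH2AC19 libraries and 0.968 ± 0.162 FPKM in sgControl libraries (SD, n = 3 each), with a log2 difference of 0.18 (SE 0.10), which became 0.33 with an offset of 0.1 FPKM. IGF2 rested on 430 to 590 reads in sgH2AC19 libraries and 489 to 583 in sgControl libraries, H19 on 132 to 228 reads in sgH2AC19 libraries and 107 to 147 in sgControl libraries.

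The IGF2 to H19 ratio within a library was 1.25, 1.58 and 1.54 in sgH2AC19 libraries and 1.87, 2.21 and 1.92 in sgControl libraries. These ratios did not overlap between the groups, although each gene's own levels did. Of single genes tested, 43.2% did not overlap, and the share for ratios of other gene pairs was not computed. Nothing is read from the ratios, since this contrast chose the genes. Within 500 kb, 7 further genes were tested and 1 was called. CTSD, which encodes the lysosomal protease cathepsin D, rose to 13.8 ± 0.818 FPKM in sgH2AC19 libraries, against 10.7 ± 0.744 FPKM in sgControl libraries (SD, n = 3 each, log2 difference 0.34, limma adjusted p = 0.011).

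MEST and GRB10 lie far apart on chromosome 7. MEST (ENSG00000106484, chr7:130486171-130506465, plus strand, 18 merged exons) encodes a hydrolase-fold protein expressed from the paternal allele. It had 13.2, 13.0 and 13.6 FPKM in sgH2AC19 libraries and 14.1, 13.1 and 13.2 FPKM in sgControl libraries, and the groups overlapped. Its means were 13.3 ± 0.319 FPKM in sgH2AC19 libraries and 13.5 ± 0.541 FPKM in sgControl libraries (SD, n = 3 each), with a log2 difference of −0.02 (SE 0.0471) whose sign changed to 0.013 without sgControl replicate 1. MEST overlaps COPG2 by 228 annotated bases. Of 7 further genes tested within 500 kb of MEST, 2 rose and 1 fell. Over the regions of all members, 32 further genes were tested, of which 4 rose and 2 fell. That share was not above the 23.1% called among all genes tested. KLHDC10, a substrate receptor of a ubiquitin ligase, rose to 14.0 ± 0.630 FPKM in sgH2AC19 libraries, against 8.14 ± 0.197 FPKM in sgControl libraries (SD, n = 3 each), a log2 difference of 0.71 (SE 0.0493, limma adjusted p = 0.00038). CPA4, an imprinted carboxypeptidase gene, fell to 2.35 ± 0.314 FPKM in sgH2AC19 libraries, against 3.89 ± 0.379 FPKM in sgControl libraries (log2 difference −0.55, SE 0.0891, limma adjusted p = 0.0066). CEP41, which encodes a centrosomal protein, rose by 0.34 on the log2 scale (limma adjusted p = 0.016), a call lost without sgH2AC19 replicate 2 (adjusted p = 0.051) or sgControl replicate 2 (adjusted p = 0.060).

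GRB10 (ENSG00000106070, chr7:50590063-50793462, minus strand, 32 merged exons) encodes an adaptor that binds and restrains the insulin and IGF receptors. It had 22.3, 21.4 and 21.3 FPKM in sgH2AC19 libraries and 19.7, 21.7 and 18.8 FPKM in sgControl libraries. Its sgControl libraries spread around the sgH2AC19 range from below to inside it. The means were 21.7 ± 0.557 FPKM in sgH2AC19 libraries and 20.1 ± 1.52 FPKM in sgControl libraries (SD, n = 3 each), and the log2 difference was 0.11 (SE 0.0599). The 1 further gene tested near it was not called by limma or voom and had an unadjusted p above 0.05.

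**Figure D2:**
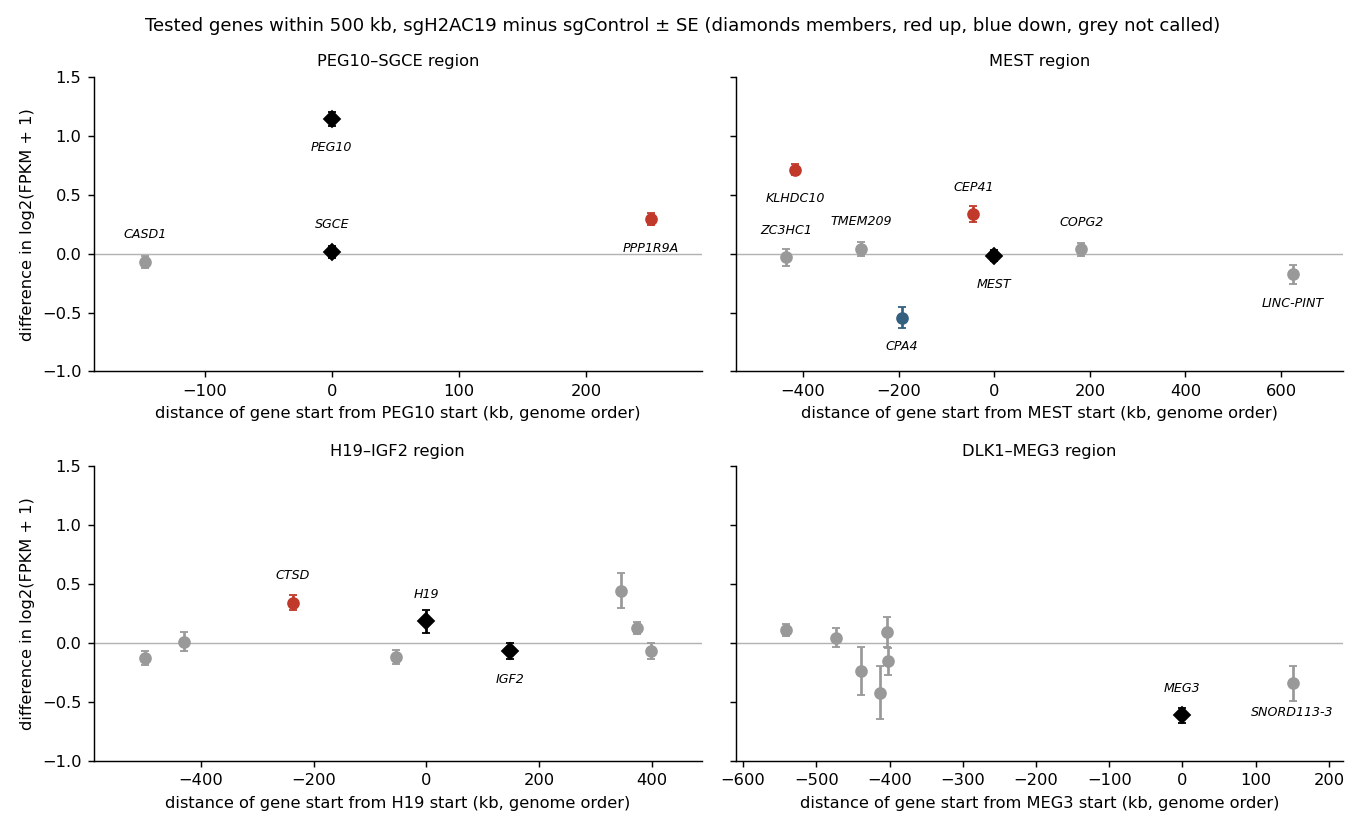
Log2 difference ± SE (vertical axis, log2(FPKM + 1), sgH2AC19 minus sgControl) of tested genes within 500 kb of 4 imprinted pairs or genes, by distance of the gene's start in kb. Black diamonds are the imprinted genes described here, red and blue dots other genes that rose or fell, grey dots genes not called. PEG10 stands at 1.15 beside SGCE at 0.02, and MEG3 at −0.62 has no called gene around it.

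PEG3 and NDN complete the set. PEG3 (ENSG00000198300, chr19:56810077-56840728, minus strand), a paternally expressed zinc-finger gene, was listed at 0 FPKM in all 6 libraries. A count of 0 allows up to 3 reads, or 0.00671 to 0.00861 FPKM per library, counting error only. NDN (ENSG00000182636, chr15:23685400-23687330, minus strand, 1 exon), which encodes the MAGE-family protein necdin of the Prader-Willi region, had 0.138, 0 and 0.0829 FPKM in sgH2AC19 libraries and 0.0579, 0.0266 and 0.0517 FPKM in sgControl libraries. This is 12, 0 and 6 reads in sgH2AC19 libraries and 4, 2 and 4 reads in sgControl libraries, with overlapping groups. Near NDN the 1 gene tested was not called by limma or voom and had an unadjusted p above 0.05, and near PEG3 1 of 7 was, a noncoding gene named only by its identifier (ENSG00000268205). It fell to 17.1 ± 0.718 FPKM in sgH2AC19 libraries, against 21.9 ± 0.573 FPKM in sgControl libraries (log2 difference −0.34, limma adjusted p = 0.0037).

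PEG10 and MEG3 had the opposite order of groups, and over the 6 libraries their log2 levels had a Pearson r of −0.986, with the groups apart on both genes. The genes most like PEG10 by r over the 6 libraries were PDE7A and ZW10, both at 0.999, and 1342 genes tested had an r above 0.9 with it. For MEG3 these were RPS3 and MYL6B, both at 0.999, with 1173 genes above 0.9. The other tested members had from 15 such genes for MEST to 126 for H19. MEST was closest to APP (0.980) and ZBTB8A (0.976), SGCE to LINC02582 (0.993) and LINC02298 (0.978), and GRB10 to FRS3 (0.989) and PPP3CB-AS1 (0.988). IGF2 was closest to PPM1N (0.991) and LAMTOR4 (0.983), and H19 to PHLPP1 (0.991) and KRT8P33 (0.988), a KRT8 pseudogene whose reads cannot be surely told from those of KRT8. All these values share the same 6 libraries and are descriptions.

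Other genes of imprinted clusters were counted from a list of 77. It held 47 neighbours in the clusters of the 10 genes and 30 genes listed as imprinted in other clusters. Whether each of the 77 is itself imprinted in humans was not checked here. Of the 77, 74 were in the table and 30 passed the filter. Of these 7 rose and 5 fell, which is 40.0% called beside 23.1% of all genes, with a median log2 difference of 0.06 beside −0.01. The count was 7 with each of the sgControl libraries left out in turn. Fewer of all genes were called then too, 1663 of 12659, 1513 of 12644 and 1632 of 12634 tested without sgControl replicates 1, 2 and 3. The 7 are therefore not to be set beside the 23.1%. Of the 12, OSBPL5 and NNAT passed the filter only through the group in which they were higher, sgH2AC19 for OSBPL5 and sgControl for NNAT. In the clusters of the 10 genes, 4 of 15 tested rose, 3 fell and 8 were not called. PHLDA2, a maternally expressed gene that limits placental growth, had 9.55, 7.13 and 6.64 FPKM in sgH2AC19 libraries and 13.1, 13.9 and 14.5 FPKM in sgControl libraries. Every sgH2AC19 library was the lower, and the log2 difference was −0.77 (SE 0.117, limma adjusted p = 0.0050). UBE3A, the ubiquitin ligase gene of Angelman syndrome, rose to 4.46 ± 0.366 FPKM in sgH2AC19 libraries, against 3.16 ± 0.0702 FPKM in sgControl libraries (SD, n = 3 each, log2 difference 0.39, limma adjusted p = 0.0061). CPA4 and PPP1R9A, described above, belong to the same list.

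In other clusters 3 of 15 rose, 2 fell and 10 were not called. TRAPPC9, a vesicle-tethering factor gene, rose to 3.24 ± 0.0940 FPKM in sgH2AC19 libraries, against 2.32 ± 0.0194 FPKM in sgControl libraries (log2 difference 0.35, limma adjusted p = 0.0044). NLRP2, known for maternal effects on imprinting, rose by 0.31 on the same scale (limma adjusted p = 0.012). ZDBF2, a paternally expressed zinc-finger gene, fell by 0.32 (limma adjusted p = 0.031), a call lost without sgH2AC19 replicate 1 (adjusted p = 0.057) and without sgControl replicates 1, 2 or 3 (adjusted p = 0.095, 0.091 and 0.075). IGF2R, which clears IGF2 and is imprinted in mouse, rose by 0.18 (limma adjusted p = 0.019), a call lost without the same 4 libraries, at adjusted p 0.056 to 0.073.

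**Figure D3:**
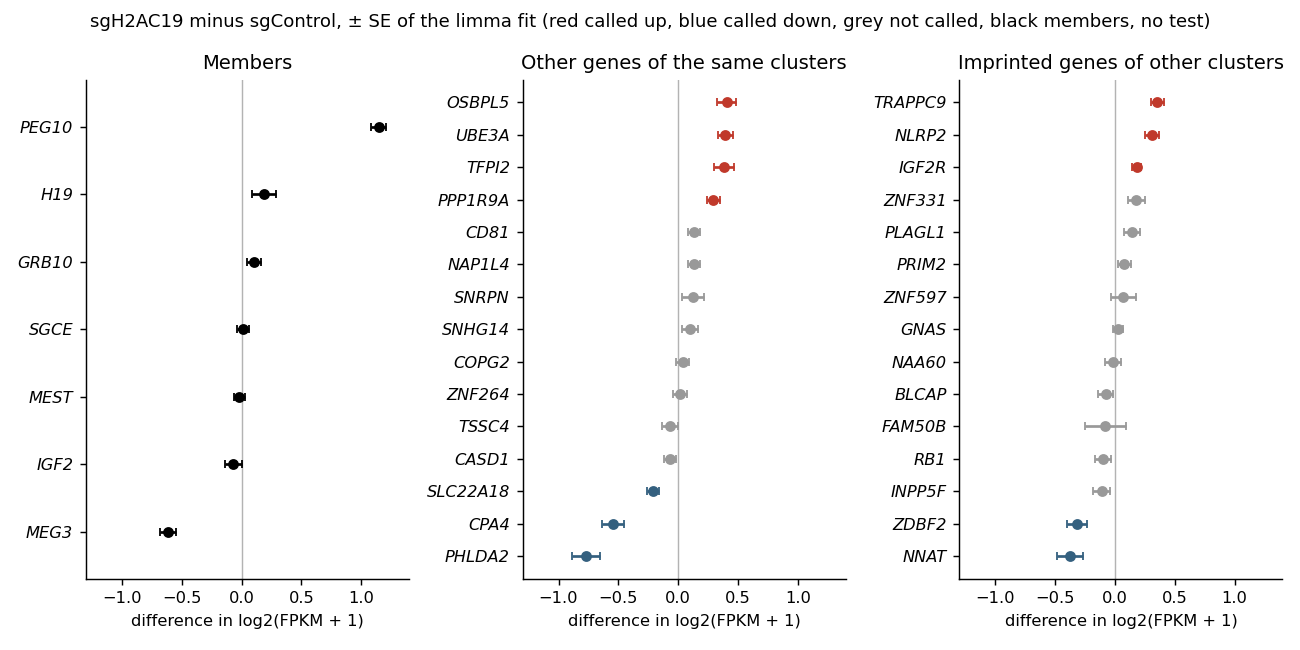
Log2 difference ± SE (log2(FPKM + 1), sgH2AC19 minus sgControl) of the tested members, other tested genes of the same clusters and tested genes listed as imprinted in other clusters, in order of value. PEG10 lies at one end with 1.15 and PHLDA2 (−0.77) and MEG3 (−0.62) at the other, while most genes lie close to 0.

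Genes that maintain imprints or DNA methylation were tested in 31 of 41 cases. Of these 6 rose, 0 fell and 25 were not called by limma, 19.4% beside the 23.1% of all genes, and at an unadjusted p under 0.05 1 had a lower value, while voom on recovered reads called 8 higher and 1 lower. HDAC1, a histone deacetylase gene, rose to 23.3 ± 1.19 FPKM in sgH2AC19 libraries, against 17.8 ± 1.25 FPKM in sgControl libraries (log2 difference 0.37, limma adjusted p = 0.0079). ZBTB38, a methyl-CpG-binding zinc-finger gene, rose by 0.31 on the log2 scale (limma adjusted p = 0.011). Without sgH2AC19 replicate 1 or 2 or any 1 sgControl replicate, 1513 to 2135 of all genes were called. The count for the list was then 3 without sgH2AC19 replicate 1 or 2, 3 without sgControl replicate 1 or 2, and 2 without sgControl replicate 3. Among those lost, EHMT1, a histone methyltransferase gene (log2 difference 0.21, limma adjusted p = 0.035), was no longer called when any 1 of the 6 libraries was left out (adjusted p = 0.057 to 0.12). ZNF202, a zinc-finger gene (log2 difference 0.29, limma adjusted p = 0.013), was lost without sgControl replicate 3 (adjusted p = 0.052). ARID4A and the DNA methyltransferase gene DNMT3A were also called higher, both near the threshold. ARID4A had 5.72 ± 0.279 FPKM in sgH2AC19 libraries and 4.94 ± 0.111 FPKM in sgControl libraries (limma adjusted p = 0.044). DNMT3A had 2.86 ± 0.0821 FPKM in sgH2AC19 libraries and 2.37 ± 0.133 FPKM in sgControl libraries (limma adjusted p = 0.048). Some genes of the list had overlapping groups. DNMT1, the maintenance methyltransferase, had 7.11 ± 0.647 FPKM in sgH2AC19 libraries and 6.67 ± 0.194 FPKM in sgControl libraries (SD, n = 3 each). UHRF1, its recruiter, had 6.50 ± 0.800 FPKM in sgH2AC19 libraries and 7.25 ± 0.854 FPKM in sgControl libraries, and TRIM28, the corepressor of ZFP57, 56.8 ± 2.76 FPKM in sgH2AC19 libraries and 56.1 ± 1.39 FPKM in sgControl libraries. CTCF, which binds the IGF2 and H19 control region, averaged 9.85 ± 0.411 FPKM in sgH2AC19 libraries and 8.54 ± 0.491 FPKM in sgControl libraries and narrowly missed the threshold (log2 difference 0.19, SE 0.0564, limma adjusted p = 0.052). ZFP57 was under the filter, at 0.136, 0.0403 and 0.152 FPKM in sgH2AC19 libraries and 0.556, 0.352 and 0.236 FPKM in sgControl libraries. Its groups did not overlap, yet it was not called when all detected genes were fitted (log2 difference −0.31, limma adjusted p = 0.17). MBD2, a methyl-CpG-binding protein gene, had 5.81, 5.66 and 12.1 FPKM in sgH2AC19 libraries and 11.5, 11.9 and 11.2 FPKM in sgControl libraries, so that sgH2AC19 replicate 3 stood at the sgControl level. ARID4A, DNMT3A, DNMT1, UHRF1, TRIM28, CTCF, ZFP57 and MBD2 were singled out after their values were seen.

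Receptors, binding proteins and other partners of IGF2 were tested in 17 of 18 cases. Of the 17, 6 rose, 3 fell and 8 were not called, 52.9% beside the 23.1% of all genes. IGFBP4, an IGF-binding protein, had 468, 448 and 455 FPKM in sgH2AC19 libraries and 227, 206 and 220 FPKM in sgControl libraries, a log2 difference of 1.07 (SE 0.0468, limma adjusted p = 9.0e-05). IGF1R, the signalling receptor for IGF2, rose to 33.5 ± 0.641 FPKM in sgH2AC19 libraries, against 21.0 ± 0.683 FPKM in sgControl libraries (SD, n = 3 each, log2 difference 0.65, SE 0.0431, limma adjusted p = 0.00034). IGFBP1, a hepatic and decidual binding protein, went the other way, with 37.8, 33.0 and 28.7 FPKM in sgH2AC19 libraries and 66.7, 75.8 and 63.3 FPKM in sgControl libraries. Its log2 difference was −1.03 (SE 0.106, limma adjusted p = 0.0014). IGFBP6, which binds IGF2 in preference to IGF1, fell by 0.44 on the log2 scale (limma adjusted p = 0.0063). The count for the list was 4 without sgH2AC19 replicate 1, 5 without sgControl replicate 1 or 2, and 4 without sgControl replicate 3. Of all genes, 1513 to 2135 were called in these fits.

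SGCE's own complex and PEG10's relatives were counted as well. The list of sarcoglycan and dystrophin-complex genes also held TOR1A, not a gene of that complex, which was tested and not called. Of the list's 15 genes, 9 were tested, 2 rose, 1 fell and 6 were not called, 33.3% called beside the 23.1% of all genes. DAG1, the dystroglycan gene, rose to 35.0 ± 0.730 FPKM in sgH2AC19 libraries, against 26.0 ± 0.529 FPKM in sgControl libraries (SD, n = 3 each, log2 difference 0.42, limma adjusted p = 0.0012). SGCB, β-sarcoglycan, fell to 14.6 ± 0.279 FPKM in sgH2AC19 libraries, against 19.4 ± 0.232 FPKM in sgControl libraries (log2 difference −0.38, limma adjusted p = 0.0015). SGCD, δ-sarcoglycan, rose by 0.33 (limma adjusted p = 0.029), a call lost without sgH2AC19 replicate 2 (adjusted p = 0.057) or sgControl replicate 1, 2 or 3 (adjusted p = 0.091, 0.088 and 0.059), and the list's count was then 2. Of the retrotransposon-derived Gag genes other than PEG10, 10 of 22 were tested. By limma 1 rose, RTL8B, to 6.20 ± 0.326 FPKM in sgH2AC19 libraries, against 4.80 ± 0.259 FPKM in sgControl libraries (log2 difference 0.31, limma adjusted p = 0.011), and 0 fell, 10% called beside the 23.1% of all genes. At an unadjusted p under 0.05 1 Gag gene was lower, and voom called 0 lower. Without sgH2AC19 replicate 3 the list's count was 2.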

How the data were processed

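Per the labels' protocols, total RNA of A549 cells was made into the 6 libraries with a SMARTer kit for mRNA. One deposited table holds FPKM, a column for each library, computed by the authors per the file headers. The builds in the submitters' processing notes are GRCm38 and mm10, both of mouse, while the gene IDs are human Ensembl IDs, of which 58207 were found in GENCODE 29. Aligner, counter, annotation and strandedness: not given in the sources used here. No column of values was left unused.

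The members and gene lists were chosen with earlier results of these data known. Values were taken as log2(FPKM + 1) where 3 or more libraries had 1 FPKM or more, and limma 3.58.1 (R 4.3.3, eBayes with a trend) compared sgH2AC19 with sgControl, two-sided, with Benjamini-Hochberg adjustment over all 12871 genes and a threshold of 0.05. The members get no test. Reads were recovered from the FPKM spacing with GENCODE 29 lengths, and 12870 of the 12871 genes gave whole reads within 0.001 reads, 3759 at the length annotated in GENCODE and the rest at a different one, H19, IGF2, MEST, SGCE, DLK1 and NDN among them. DLK1 and NDN counts were all even, and the counting of mates was not tested. On these reads voom called 3542 genes as an alternative.

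Beside the members and the target, the text names for each list the called genes with the lowest adjusted p (4 at most), called genes within 500 kb of a member, and the 2 genes with the highest Pearson r to each tested member. CASD1, SNORD113-3, MEG8, MEG9, CD14 and ITGAM were named after their values were seen. Alternatives were other scalings, filters, an offset of 0.1, the replicate number as a block, voom, and leaving out each library. The gene test was tested on simulated data. Coordinates of genes are those of GENCODE 29 (GRCh38), and promoter windows those of RefSeq (GRCh38.p14). Other steps used Python 3.11.15, numpy 2.4.6, pandas 2.3.3 and matplotlib 3.10.9.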

Additional observations from a re-analysis of the deposited data

How the results depend on the processing

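Under all alternatives PEG10 stayed between 1.10 and 1.19 and MEG3 between −0.71 (voom) and −0.55 on the log2 scale. H19 was 0.33 with an offset of 0.1 and 0.37 with voom, and its 107 to 228 reads limit what can be said of it. Genes called numbered 1553 without the filter and 1513 to 3429 when 1 library was left out. The calls among other genes of imprinted clusters were then 7 to 11, among imprint and methylation factors 2 to 6 (3 without the filter), among IGF2 partners 4 to 9 (5 without the filter), among sarcoglycan-complex genes 2 to 3, and among Gag genes 1 to 2 (2 without the filter). With the replicate number as a block 2729 genes were called. Same-numbered libraries correlated by 0.0524, 0.0346 and 0.0602 in their deviations from the group means, under the 0.1 asked of a pairing, although each sgH2AC19 library correlated best with its own number. Of 387 values of 30 named genes under 13 alternatives, 34 were no longer called and 0 reversed. The cause was not tested.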
